A study of Drosophila melanogaster with 3 samples.

Results

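A set of 10 genes that encode core subunits of the Polycomb group complexes was followed through a map of the chromatin protein Chrac-16 in the fruit fly Drosophila melanogaster. They were chosen by name, with no threshold on a measured value, and are 10 of the 13945 protein-coding genes on chromosome arms 2L, 2R, 3L, 3R, 4 and X. Chrac-16 carries a histone fold and belongs to CHRAC, a complex that slides nucleosomes with the ATPase Iswi and the protein Acf. Whole embryos of both sexes, collected from 0 to 24 h of development, came from 1 transgenic line that stably expresses Chrac-16 joined to GFP at the C-terminal end. The fusion protein was precipitated with an antibody against GFP from chromatin sonicated to 200 to 800 bp and the DNA was sequenced (ChIP-seq). There were 3 biological replicates of this 1 group and no second genotype, age or treatment. The sources used here do not say which sequence drives the transgene or whether the untagged gene was still present. All cell types of the embryo were mixed, so a peak cannot be assigned to a tissue, and peak lists hold no expression values against which cell types could be checked.

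Polycomb group proteins keep developmental genes, the Hox genes above all, silent in cells where they should not be used. Polycomb repressive complex 2 (PRC2) methylates a histone tail, and Polycomb repressive complex 1 (PRC1) binds the methylated tail, compacts nucleosomes and ubiquitinates another histone. In flies both complexes are brought to DNA at Polycomb response elements, where the Pho repressive complex (PhoRC) is among the proteins that contact DNA. The loci of ph and of Psc with Su(z)2 are themselves textbook targets of Polycomb repression. The PRC1 genes followed here were ph-p and ph-d, tandem copies that encode Polyhomeotic, together with Pc, Psc, Su(z)2 and Sce. The PRC2 genes were E(z), esc and Su(z)12, and the PhoRC gene was Sfmbt.

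The genes differed widely in the signal within 500 bp of their starts, with ph-p far above the rest. Each peak has a signal value set by the authors' processing, relative to a control, and its position was taken at its summit. A summit within 500 bp of an annotated transcript start is called a promoter summit. The optimal list, the authors' stringent list from all 3 replicates, holds 4941 peaks, and a peak of rank 1 has the highest signal. The strongest promoter summit of ph-p was rank 7 of that list and lay 479 bp upstream of its middle start, in an intron of the transcripts that begin further upstream. The 300 bases centred on that summit are shown because they contain the part of the peak that the tandem copy ph-d lacks. The sequence is the release 6 (dm6) genome from RefSeq, chrX:2137184-2137483 on the minus strand, which is the strand of the gene. Capitals mark the 208 bases, chrX:2137265-2137472, that had no aligned counterpart anywhere in the ph locus.
ph-p summit: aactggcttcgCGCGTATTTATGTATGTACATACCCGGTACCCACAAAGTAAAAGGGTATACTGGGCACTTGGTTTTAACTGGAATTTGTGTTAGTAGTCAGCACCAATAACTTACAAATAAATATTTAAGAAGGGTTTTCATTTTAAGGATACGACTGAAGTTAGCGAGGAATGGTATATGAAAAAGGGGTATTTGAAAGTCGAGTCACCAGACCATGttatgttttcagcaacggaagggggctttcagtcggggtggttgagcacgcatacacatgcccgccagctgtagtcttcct

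The bases on both sides of that stretch have a counterpart upstream of ph-d, and the aligned parts are shown to let the copies be compared. All lines are from the minus strand of dm6, and capitals mark bases that differ between the copies or are present in only 1 of the 2. On the 5′ side, chrX:2137473-2137577 aligned with chrX:2123712-2123814 at 84.3% identity over 108 aligned positions, with 9 mismatches and 8 gap positions.
ph-p 5′ side: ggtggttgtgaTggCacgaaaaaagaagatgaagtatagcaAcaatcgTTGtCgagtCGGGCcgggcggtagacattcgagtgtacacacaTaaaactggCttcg
ph-d copy 5′ side: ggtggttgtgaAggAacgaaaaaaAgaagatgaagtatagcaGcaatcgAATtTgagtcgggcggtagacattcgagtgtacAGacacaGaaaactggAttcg
On the 3′ side, chrX:2137137-2137264 aligned with chrX:2123571-2123696 at 87.9% identity over 132 aligned positions, with 6 mismatches and 10 gap positions.
ph-p 3′ side: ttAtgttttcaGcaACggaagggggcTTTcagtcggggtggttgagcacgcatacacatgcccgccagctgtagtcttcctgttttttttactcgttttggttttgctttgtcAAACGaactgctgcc
ph-d copy 3′ side: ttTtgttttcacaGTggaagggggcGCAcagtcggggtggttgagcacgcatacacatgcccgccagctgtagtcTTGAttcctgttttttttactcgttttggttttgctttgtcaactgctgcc
In the ph-d copy only 15 bases separate the 2 matched parts, where ph-p has 208. The summit is base 139 of the 208, counted from the 5′ end on the gene's strand, and the summits of all 3 replicates lay inside the stretch. A search of the whole genome with the 208 bases gave 0 further matches at an expectation of 1e-05. The matched parts lie 285 to 410 bp and 426 to 528 bp upstream of the outer start of ph-d, and 0 peaks overlapped them in the optimal list, the pooled list or any replicate list. The bearing of the 208 bases on the signal was not tested, and the alignment was made after the peak values had been seen.

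The ph-p gene (FBgn0004861, chrX:2126210-2138371) carried 4 optimal summits. The strongest, in the peak chrX:2137137-2137577, had a signal of 2176 in the optimal list, and 736, 769.8 and 759.7 in replicates 1, 2 and 3. Its rank was 7, 6 and 6 in those lists. The replicates were therefore close to each other, and the 3 summits fell within 15 bp (mean 485 bp upstream of the start, SD 8.14 bp, n = 3). A second promoter summit, in the peak chrX:2137689-2138112, lay in the 5′ untranslated exon 399 bp inside the outermost start. It had a signal of 759 and rank 130 in the optimal list, and signals of 313, 234 and 274 in the 3 replicates. Further inside the gene, 2 intronic peaks lay 1278 bp and 2163 bp downstream of the innermost start. Their optimal signals were 280.0 (rank 1138) and 189 (rank 2134), and both were found in all 3 replicates. At the innermost start itself the pooled list, called on all replicates together, had only a weak summit of signal 35.7 (rank 19187 of 24641), which overlapped a peak in 2 of 3 replicates.

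The ph-d gene (FBgn0004860, chrX:2115727-2123286) had 2 optimal promoter summits of much lower signal. The higher one lay 142 bp inside the outer start, in the 5′ untranslated exon, with a signal of 205 and rank 1882. Its signal was 56.4, 73.3 and 71.5 in replicates 1, 2 and 3. The other lay 413 bp upstream of the inner start, in an intron, with a signal of 103 and rank 4762, near the lower end of the list. The part of the higher peak that overlaps the start of ph-d matched chrX:2136747-2136918, around an inner start of ph-p, at 88.6% identity over 175 aligned positions, although the summit lies outside the aligned part. At the matching part of ph-p the optimal and pooled lists had 0 overlapping peaks, and replicate 1 alone had a weak one of signal 20.3.

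Between the 2 genes, in a gap of 2923 bp, lay 2 further optimal peaks whose intervals overlap. The stronger, chrX:2123928-2124176, had its summit 767 bp upstream of the outer start of ph-d, with a signal of 466 (rank 417) and replicate signals of 179, 126 and 169. The weaker, chrX:2124050-2124465, had a signal of 198 (rank 1985) and replicate signals of 81.3, 34.8 and 51.7. Part of the weaker interval, beginning 4 bases from its summit, matched the ph-p peak inside the outermost exon, at 82.7% identity over 214 aligned positions. At this matched pair of sites both copies had a peak, with a signal of 759 at ph-p and 198 upstream of ph-d. Another part of the same ph-p peak matched the sequence under the stronger gap peak, of signal 466, at 70.4% identity over 159 aligned positions. In all, the 22645 bp from the end of ph-d to the start of ph-p held 8 optimal summits. Of 5897 windows of that length tiled along the 6 arms, 7 held as many or more (0.119%), with a median of 0 and a highest count of 10. The span was singled out after its values were seen, so this share is a description only. Every 50-base word was found once in the genome in all 21 peaks examined, which were the optimal peaks at the members or between the paired genes and the pooled promoter peaks, as in 99.5% of the 2550 optimal promoter peaks. The sources used here do not give the length of the sequenced reads.

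**Figure D1:**
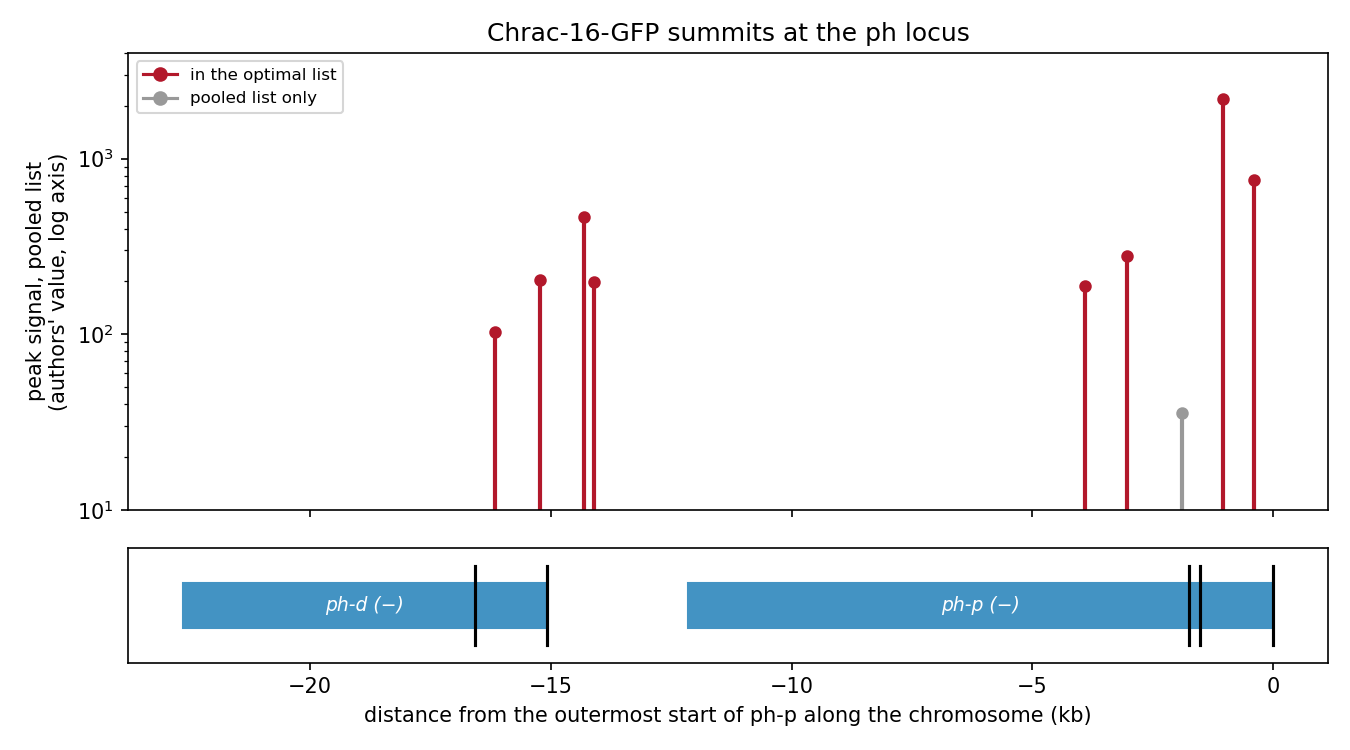
Peaks of the pooled list at the ph locus. The horizontal axis is the distance along the chromosome from the outermost start of ph-p, in kb, and the vertical log axis is the authors' signal. Red stems are in the optimal list and the grey stem in the pooled list only, boxes are genes and black ticks are transcript starts. The tallest stem, signal 2176, stands upstream of the inner starts of ph-p, and the stems at ph-d reach 205.

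E(z) encodes the methyltransferase of PRC2 and had the next highest promoter signal among the 10 genes. Its summit (FBgn0000629, chr3L:10634575-10638130) lay in the 5′ untranslated exon 40 bp inside the start, in the peak chr3L:10637890-10638219. The optimal signal was 619.9 (rank 215), and replicates 1, 2 and 3 gave 182, 245 and 196. All 3 replicates ranked it between 145 and 289, and their summits fell within 17 bp of each other. A start of Cnep1r2 lies within 500 bp of the same summit, so the peak cannot be assigned to 1 of the 2 genes.

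Su(z)12 encodes a zinc-finger subunit that PRC2 needs for its activity, and its promoter signal was close to that of a typical promoter peak. The peak chr3L:19923228-19923643 had its summit 26 bp inside the start, in the 5′ untranslated exon, with a signal of 170.2 and rank 2477. The replicate signals were 66.9, 61.3 and 49.1. The gene shares this summit with Pfdn6, which encodes a subunit of the chaperone prefoldin. The replicates placed the summit less tightly than at E(z), over a range of 102 bp.

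The third PRC2 gene, esc, encodes a WD-repeat subunit of the complex, and it had 0 optimal summits. The pooled list had a summit 20 bp upstream of its start, with a signal of 88.2 and rank 5672, below the 4941 peaks of the optimal list. Replicates 1, 2 and 3 ranked it 5625, 12678 and 3979, so only replicate 3 had it among its strongest 4941 peaks. The gene lies inside Pde1c, a phosphodiesterase gene, and the nearest optimal peak was 12825 bp away, also within Pde1c, with its nearest start that of CycY.

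Sfmbt encodes the partner of the DNA-binding protein Pho in PhoRC. It had 2 optimal promoter summits in overlapping intervals (FBgn0032475, chr2L:13169649-13176785), both outside the gene. The nearer lay 100 bp upstream of the start with a signal of 272 (rank 1212), and the other 302 bp upstream with a signal of 210.2 (rank 1797), closest to the start of CG5439. The strongest promoter signal was 61.6, 120.1 and 94.5 in replicates 1, 2 and 3, the widest relative spread among the 5 genes with an optimal promoter summit. Replicates 1 and 2 placed that summit 99 and 100 bp upstream, whereas replicate 3 had a single summit 302 bp upstream. Starts of CG43925 and CG5439 lie within 500 bp of the nearer summit.

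At the nearer Sfmbt summit a copy of the DNA replication-related element spans the summit base. This element, TATCGATA, is found at many starts of housekeeping genes in flies. The 249 bases chr2L:13176786-13177034 (dm6, minus strand, the strand of the gene) are shown because this was the only member window to hold the element, which is in capitals.
Sfmbt summit: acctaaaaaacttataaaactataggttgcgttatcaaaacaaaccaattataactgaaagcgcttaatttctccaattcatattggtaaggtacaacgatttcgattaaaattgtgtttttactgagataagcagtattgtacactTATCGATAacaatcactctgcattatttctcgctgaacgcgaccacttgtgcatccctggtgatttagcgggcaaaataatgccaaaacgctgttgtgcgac
The stretch is the part of the 300 bases around the summit that lies outside annotated untranslated exons. The windows at E(z), the outer start of ph-d and the outer exon of ph-p lie mainly in such exons and are described without their letters.

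Of the 4 remaining PRC1 genes, 2 had a weak promoter summit in the pooled list and 2 had none. Pc encodes the chromodomain protein that reads the methylated histone tail. Its pooled summit lay 15 bp upstream of the start with a signal of 60.9 and rank 8735, and replicates 1, 2 and 3 ranked it 6781, 6892 and 23919. The nearest optimal peak, chr3L:21304413-21304750 (signal 782, rank 123), was 13423 bp from the start of Pc, beyond the other end of the gene, at the promoter of CG11309. Sce encodes the RING-finger ubiquitin ligase of PRC1 and was the only member with 0 promoter summits in every list, replicates included. A pooled summit of signal 45.0 lay 554 bp upstream of its start, just outside the 500 bp limit, and the nearest optimal peak was 4725 bp away near Hsdl2. For comparison, the strongest ph-p summit, at 479 bp, was just inside the limit.

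Psc and Su(z)2 encode related RING-finger proteins and lie head to head on arm 2R, 15506 bp apart. The optimal list had 0 summits at either promoter but 4 summits in the 41915 bp from the end of Psc to the end of Su(z)2. As many or more were in 15.2% of 3184 tiled windows of that length (median 1). The strongest lay in the gap, in the peak chr2R:12985031-12985385, 4229 bp upstream of the outer start of Psc. It had a signal of 1058 (rank 59) in the optimal list, and 347, 342 and 369 in replicates 1, 2 and 3, with ranks of 62, 65 and 49. Its nearest start is that of the long non-coding RNA lncRNA:CR44339, 144 bp away. The other gap peak had a signal of 119.9 (rank 3962), 4848 bp upstream of Su(z)2.

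Within Psc (FBgn0005624, chr2R:12965997-12980994) an intronic peak lay 5074 bp downstream of the nearest start, with a signal of 288 (rank 1083) and replicate signals of 117, 91.5 and 80.2. Within Su(z)2 (FBgn0265623, chr2R:12996501-13007911) an intronic peak 8390 bp from the nearest start had a signal of 106 (rank 4615). Both were present in all 3 replicates. At the Psc promoter itself the pooled summit, 22 bp inside a start, had a signal of 46.2 (rank 12691) and overlapped a peak of replicate 1 only. Replicate 3 had 2 promoter summits of Psc outside that peak, the stronger of signal 19.2 (rank 10708), and replicate 2 had none. Su(z)2 had 2 weak promoter summits in replicate 1, the stronger of signal 15.8 (rank 14768), and none in replicates 2 and 3 or in the pooled list, where the closest summit was 687 bp inside a start.

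**Figure D2:**
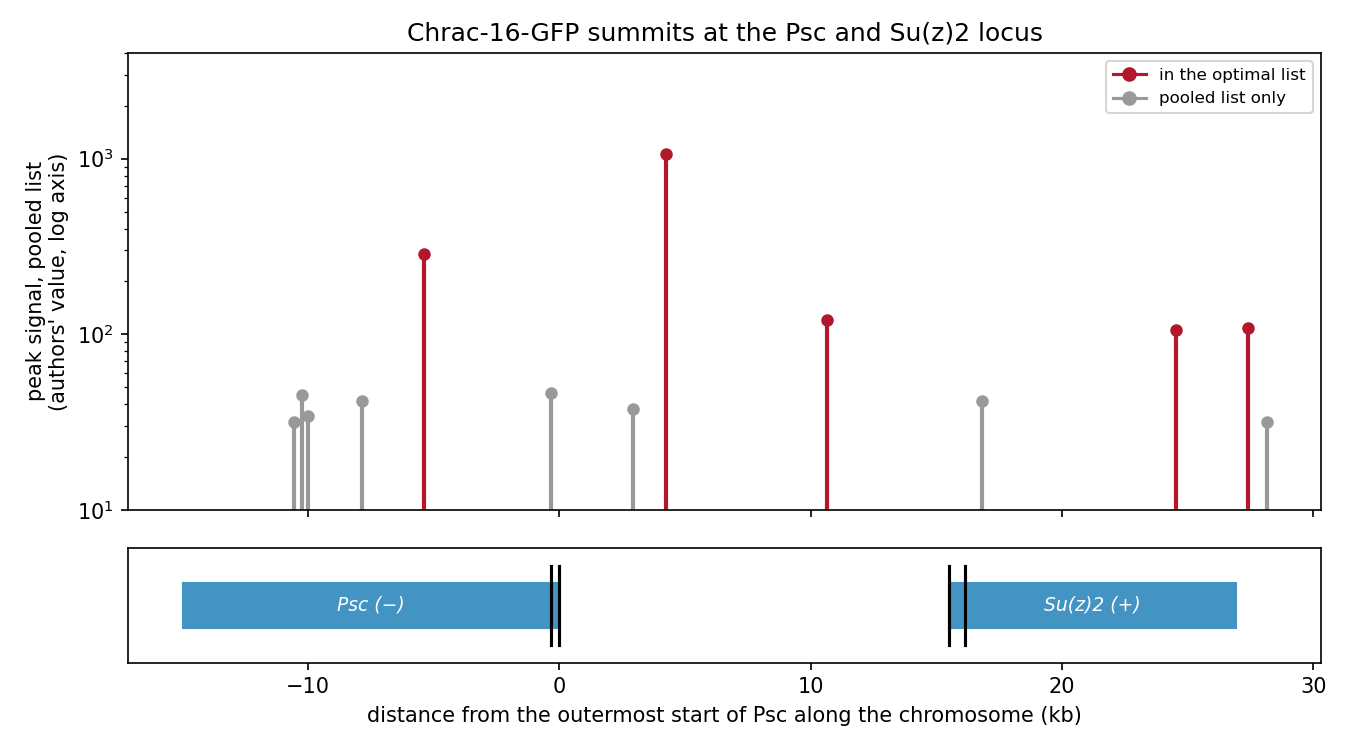
Peaks of the pooled list at the Psc and Su(z)2 locus. The horizontal axis is the distance along the chromosome from the outermost start of Psc, in kb, and the vertical log axis is the authors' signal, with red stems in the optimal list and grey stems in the pooled list only. The tallest stem, signal 1058, stands in the gap between the genes, and the stems at the starts are grey.

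To set the genes side by side, the strongest promoter signal of each was divided by the median promoter peak among the 4941 strongest peaks of the same replicate. These medians were 61.7, 62.8 and 63.5 in replicates 1, 2 and 3. The relative signal averaged 12.05 ± 0.179 at ph-p, 3.31 ± 0.518 at E(z), 1.47 ± 0.457 at Sfmbt and 1.07 ± 0.136 at ph-d (SD, n = 3). It averaged 0.944 ± 0.157 at Su(z)12, 0.477 ± 0.183 at esc and 0.345 ± 0.134 at Pc (SD, n = 3). The other 3 genes lacked a promoter summit in at least 1 replicate and have no mean. The replicate values did not overlap for 3 of the 6 pairs of neighbours in this order. They were ph-p above E(z), by 3.64 times, E(z) above Sfmbt, by 2.26 times, and Su(z)12 above esc, by 1.98 times. For the other 3 pairs the replicate values overlapped. An exact two-sided permutation test on 3 against 3 values cannot go below p = 0.1, which each of the 3 separated pairs reached (0.2 after Benjamini-Hochberg adjustment over the 6 pairs). The other pairs had exact p-values of 0.3, 0.4 and 0.4. Compared within each replicate, Sfmbt was above ph-d in 3 of 3 replicates, by a mean of 0.397 ± 0.332 (SD of the difference, n = 3). The Sfmbt values of replicates 1 and 2 came from summits 99 and 100 bp upstream. That of replicate 3 came from the summit 302 bp upstream, a position nearer to the start of CG5439. In the 3 separated pairs the upper gene is above in 3 of 3 by definition, since their values do not overlap. The order of ph-d and Su(z)12, and of esc and Pc, held in 2 of 3 replicates. An exact paired permutation test on 3 replicates cannot go below p = 0.25. The 4 pairs with 1 direction in 3 of 3 reached it, as any such pair must.

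**Figure D3:**
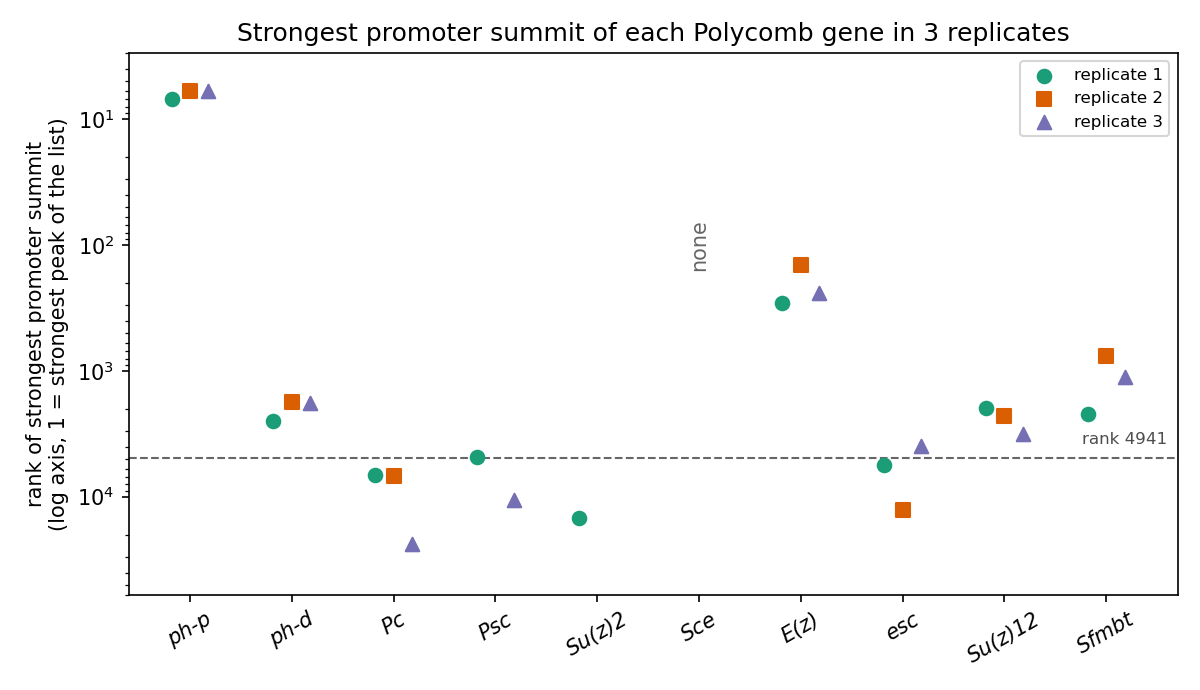
Rank of the strongest promoter summit of each of the 10 genes in each replicate list, on a log axis with rank 1 at the top. Symbols are the 3 replicates and the dashed line is rank 4941. The ph-p symbols sit at ranks 6 and 7, E(z) between 145 and 289, and Sce has no symbol because it had no promoter summit.

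By count, 5 of the 10 genes had an optimal promoter summit: ph-p, ph-d, E(z), Su(z)12 and Sfmbt. The share over all protein-coding genes was 22.5% (3137 of 13945). By complex these were 2 of 6 PRC1 genes, 2 of 3 PRC2 genes and the PhoRC gene. The pooled list added Pc, Psc and esc, for 8 of 10, against 49.7% of all protein-coding genes. Among the 4941 strongest peaks of replicates 1, 2 and 3, the count was 6, 5 and 6 of the 10 (mean 5.67 ± 0.577, SD, n = 3), against 22%, 21.9% and 22.4% of all protein-coding genes. The same 5 genes were called in each replicate, with Psc added in replicate 1 and esc in replicate 3. In the whole replicate lists the count was 9, 7 and 8, against 52.7%, 47% and 52.3%.

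As a set the members had a higher median length and a higher mean number of starts than all protein-coding genes. The bearing of either on the counts was not tested. Their median length was 7348.5 bp, against 2166 bp for all protein-coding genes, and they had a mean of 1.7 distinct starts, against 1.41. Of the 4 members with 1 start, 1 had an optimal promoter summit, against 17.9% of all genes with 1 start. Of the 6 members with 2 or more starts, 4 had one, against 35.1%. With gene bodies included, 7 of 10 members had an optimal summit, against 27.1% of all genes and 31.1% of genes within the members' range of lengths. Away from starts by more than 500 bp, 3 of 10 members had one in the gene body, against 6.63%. Only ph-p among the 10 had 4 or more optimal summits in the gene body or at a promoter, against 1.22% of all genes. So did 3 of the 25 other Polycomb genes described below, namely Kdm2, Trl and psq. With 10 genes, each gene is 10 percentage points of these shares. The median signal of the strongest optimal promoter summit was 272 over the 5 members that had one, and 198 over the 3137 protein-coding genes that had one.

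**Figure D4:**
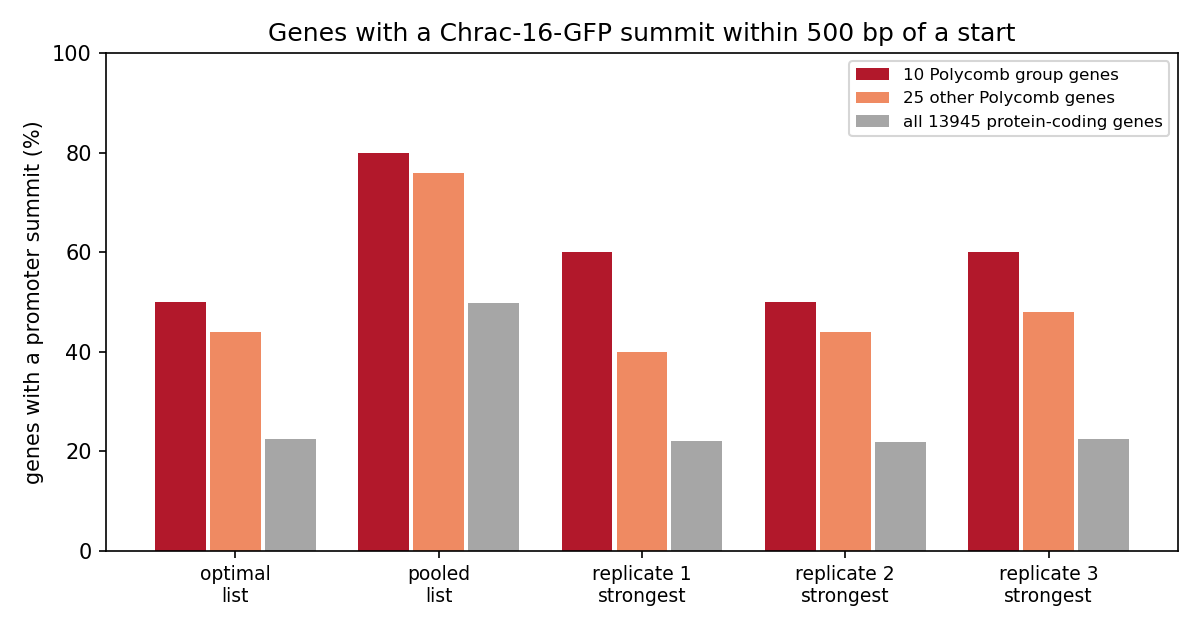
Percent of genes with a promoter summit in the optimal list, the pooled list and the 4941 strongest peaks of each replicate. Within each group of bars the 10 Polycomb group genes stand left, the 25 other Polycomb genes in the middle and all 13945 protein-coding genes right. The left bars reach 50% in the optimal list and 80% in the pooled list.

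A further 25 genes of the pathway had an optimal promoter summit in 11 cases and a pooled one in 19, beside the same 22.5% and 49.7% of all genes. The highest of them was Trl, which encodes GAGA factor, a DNA-binding protein at Polycomb response elements. It had a signal of 408 (rank 556) and replicate signals of 142, 119 and 143. Other DNA-binding proteins and their partners with an optimal summit were psq (266), lolal (253), grh (122.0) and pho (105). The pho gene encodes the partner of Sfmbt, and its summit lay 200 bp upstream of the start at rank 4666, with replicate ranks of 3419, 4126 and 8488. Of the PRC1 partners, l(3)73Ah had a signal of 188, the demethylase gene Kdm2 had 142.0 and RYBP had 101. The PRC2 partner Jarid2 had 136, at a summit nearer to the start of Uch-L5. Of the rest, mxc had 222 at a summit shared with Larp7, and l(3)mbt had 101 at a summit nearer to CG5934. The grh summit was nearer to the start of asRNA:CR45270. None of the 25 reached the promoter signal of ph-p or E(z), and their median was 142.0 over the 11 genes. The genes of the deubiquitinase complex, calypso and Asx, had no optimal promoter summit. A peak of signal 329 (rank 844) lay 551 bp upstream of calypso, just outside the limit. Its summit was nearer to the start of CG42837, 158 bp away.

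**Figure D5:**
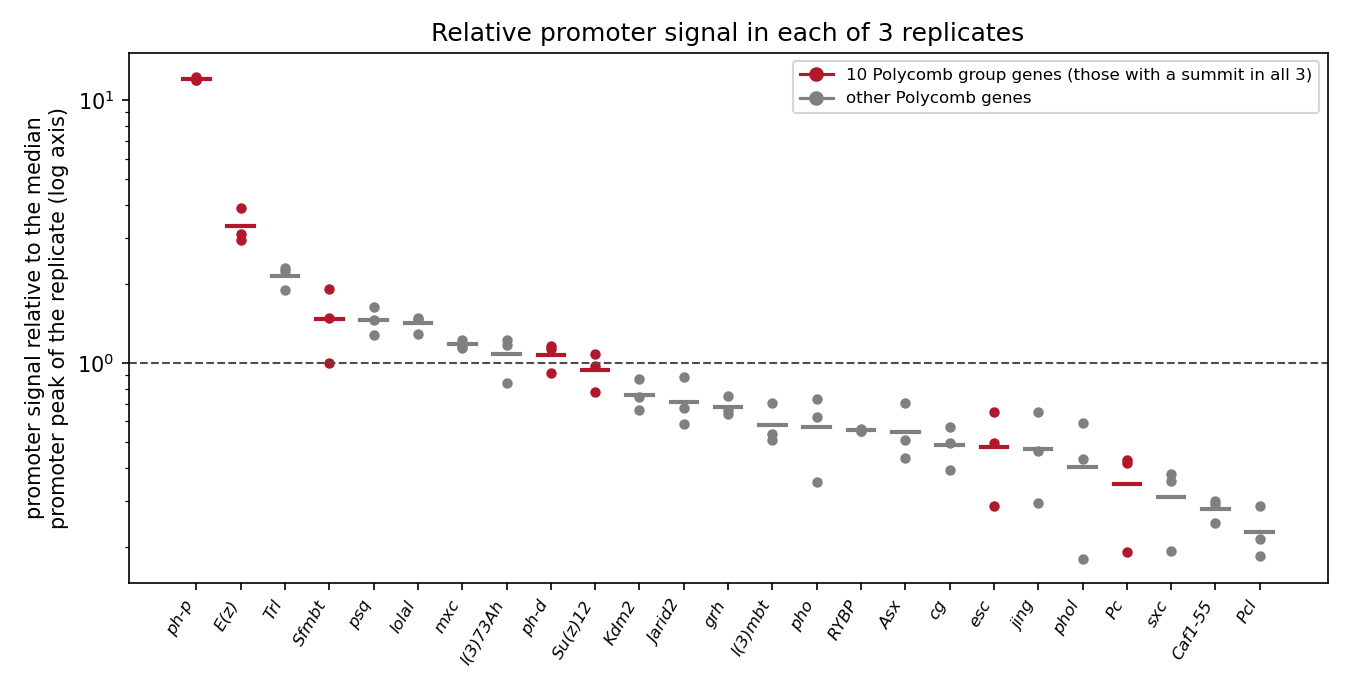
Strongest promoter signal relative to the median promoter peak of the replicate, on a log axis, for each gene with a promoter summit in all 3 replicates. Points are the replicates and short lines their means, with red for the 10 Polycomb group genes, grey for other Polycomb genes and a dashed line at the median promoter peak. The points of ph-p lie near 12.05 and those of E(z) near 3.31, above all grey points.

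The members' promoter summits lay on both sides of their starts. Of their 8 optimal promoter summits 4 lay upstream of the nearest own start, with a median 37 bp upstream. Of all 2550 optimal promoter summits 84.2% lay upstream, with a median 107 bp upstream. The difference was not tested, since summits of 1 gene are not independent.

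Short DNA motifs were counted on both strands in the 300 bases around 16 optimal summits, those of the members and the 4 between the paired genes, some of which overlap. The shares over the 300 bases around all 2550 optimal promoter summits are given beside them. Only 8 of the 16 are promoter summits of members, and the rest lie in introns or between the paired genes. The sets of windows are therefore unlike in kind. GAGAG, the GAGA factor core, was in 6 of 16 windows (37.5%), against 29.3%. GCCAT, the Pho core, was in 5 (31.2%), against 38.1%. GTGTGT, a Combgap-type repeat, was in 4 (25%), against 16.04%, and the E-box CAGCTG in 3 (18.8%), against 18.9%. TGAGTG, the Zeste core, was in 1, against 12.2%. TATCGATA was in 1, against 10.9%, and CGATA, a BEAF core that TATCGATA contains, was in 3 (18.8%), against 49.4%. The Motif 1 core GGTCACAC was in 0 of 16, against 6.71%. The strongest window, that of ph-p, held CAGCTG 135 bases from the summit and none of the others, and the strongest window between Psc and Su(z)2 held GTGTGT at 2 positions and none of the others. Both GAGAG and GCCAT were present in the windows of E(z), the intronic Psc peak, the ph-p intronic peak of signal 189 and the weaker peak between Psc and Su(z)2. The share of all optimal promoter summits with both was not computed, so no excess can be read from these windows. From 250 bases before to 50 bases after each of the 17 starts of the members, GAGAG was present at 10 starts (58.8%), of 5 genes, against 33.1% of 19253 starts of all protein-coding genes. GCCAT was at 7 (41.2%), against 41.0%, GTGTGT at 6 (35.3%), against 18.2%, and CAGCTG at 4 (23.5%), against 17.9%. CGATA was at 3 (17.6%), against 45.7%, TATCGATA at 1 (5.88%), against 7.98%, and TGAGTG at 0, against 13.2%. GGTCACAC, present in 0 of the 16 summit windows, was at 3 starts (17.6%), against 6.72%. Starts of 1 gene share sequence, and a match is a string of letters that says nothing of occupancy.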

How the data were processed

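The data were ChIP-seq peak lists for 3 biological replicates. Per the listings deposited beside the files, the authors called a relaxed list on each replicate, a pooled relaxed list on all 3 and an optimal list derived from these, with a control alignment that is not analysed here. No source used here names the aligner or the peak caller. The signal of each peak (deposited column 7) and its summit offset (deposited column 10) were used as the authors gave them. Signal scales differ between lists, so ranks and within-list ratios were compared. Lists of 30000, 24619 and 29140 peaks (replicates 1 to 3) and 24641 peaks (pooled) give no counts of reads, and the depth is unknown. The optimal list was the 4941 strongest pooled peaks (4941 of 4941).

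Summits were set against Ensembl release 115 genes and the dm6 genome. The dm3 lists were not used, for want of an annotation of that build. Python 3.11.15, pandas 2.3.3, SciPy 1.17.1 and BLAST 2.17.0 were used. Signals were tested by an exact permutation test between neighbouring genes, and counts were set beside the share over all genes without a test. Overlap needed 1 bp, and ranks are within a list. Gene assignment was tested on simulated lists. Members and lists were chosen with earlier results of these data known. The text names all 10 members, each of the 25 other genes with an optimal promoter summit, pho, and genes that share or lie nearest to a member's summit. The pair from the deubiquitinase complex, and the gene nearest to the peak by calypso, were named after the values were seen. The gene calypso is annotated as caly. The alternatives were other windows, start sets, peak thresholds, overlaps and leaving out each replicate.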

Additional observations from a re-analysis of the deposited data

How the results depend on the processing

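Of 55 alternatives for counts, 52 stayed within 1.5 times of the reported count. Not all of them could fail, since a pooled count of 8 of 10 cannot rise by 1.5 times. The whole list of replicate 1, with 9 members against 6, was scored as within the limit. Its share over all genes was 52.7%, against 22%. The 52 are therefore no measure of stability. The number of other Polycomb genes with an optimal promoter summit fell to 5 among the stronger 50% of the optimal list, against 11, while the share over all genes came to 13.4%, against 22.5%. Members with an optimal summit in the gene body or at a promoter came to 3 where 500 bp around every start was left out, against 7, since that definition drops promoter summits. Neighbouring pairs without overlap numbered 5 without replicate 1 and 3 without replicate 2 or replicate 3, against 3 reported. With 1 replicate left out, non-overlap is easier to meet, so these counts are not comparable with the reported 3. A window of 250 bp dropped ph-p from the optimal count, as its promoter summits lie 399 and 479 bp from a start. That left 4 of 10, with 17.9% of all genes against 22.5%. In the pooled list the only ph-p summit within 250 bp of a start had a signal of 35.7 (rank 19187). The place of ph-p at the top of the signal order therefore rests on the 500 bp window. A pooled window of 750 bp, chosen after seeing the data, or of 1000 bp, gave 10 of 10, with 54.5% and 57.8% of all genes in that order, against 49.7%. The 21 alternatives for the relative signals of single genes left out each replicate. Leaving out 1 of 3 values cannot move a mean by 1 SD, so a small shift is no sign of stability. The mean ran from 11.95 to 12.11 at ph-p, 0.391 to 0.574 at esc and 0.304 to 0.423 at Pc. With the replicate as a block, an analysis chosen after seeing the data, 4 of 6 neighbouring pairs kept 1 direction in every replicate. The 3 pairs without overlap are among these 4 by definition, so only Sfmbt above ph-d was added. No paired analysis was possible between groups because there is 1 group. Peak lists give no depth, so a missing peak was not detectable at these thresholds rather than shown to be absent.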
